A study of Homo sapiens with 4 samples.

Results

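The genes described here were 10 protein-coding genes of the NF-kB pathway, taken by name from a list of its factors and targets out of 20033 annotated protein-coding genes. They comprised the inhibitor NFKBIA, the factors NFKB1, NFKB2 and RELB, the feedback regulators TNFAIP3 and BIRC3, the chemokines CXCL1, CXCL2 and CXCL8, and the cytokine IL6. RNA polymerase II (Pol II) was mapped by chromatin immunoprecipitation and sequencing (ChIP-seq) in SK-OV-3, an ovarian cancer cell line. The question was how Pol II transcription depends on RRN3, which serves RNA polymerase I as an initiation factor. Control cells carried shLacZ, a short hairpin RNA against the bacterial gene LacZ, and knockdown cells carried shRRN3, a hairpin against RRN3. Each hairpin was represented by 1 list of Pol II peaks, so the spread between replicates is unknown and no difference between the hairpins was tested. Peaks do not measure RRN3 RNA, so the depletion itself was not checked here.

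NF-kB factors are held in the cytoplasm by inhibitors of the IkB family until a signal such as tumour necrosis factor leads to the destruction of the inhibitor. The freed factors then enter the nucleus and switch on genes within minutes, among them the inhibitor itself, other brakes on the pathway, and cytokines that attract or activate immune cells. In many epithelial cancers, ovarian cancer included, these cytokines are also made by the tumour cells.

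On the assembled chromosomes there were 3920 shLacZ and 14322 shRRN3 peaks, so a gene was more likely to carry a shRRN3 peak whatever its function. Scores depend on sequencing depth, which the lists do not give. They were read as percentiles, the share of peaks of the same list with a score at or below that of the peak. The exception was a score cut applied to both lists among the alternative settings. Of 6 epithelial markers, none had a peak at the start in shLacZ and 2 (KRT8 and KRT18) had one in shRRN3. KRT7, KRT19, EPCAM and CDH1 had no start peak in either list. In the gene or 5 kb around it, 4 of the 6 had a peak in shRRN3 and 0 in shLacZ. Of 5 markers of Mullerian lineage and ovarian carcinoma, 1 (PAX8) had a start peak, in both lists, and WT1, MUC16, MSLN and ERBB2 had none. Of 5 fibroblast and endothelial markers, 0 had a start peak in either list, and 1 had a shRRN3 peak in the gene or 5 kb around it. Of 6 leukocyte markers, 1 (CD68) had a peak at the start, in both lists, and PTPRC, the gene of the pan-leukocyte antigen, had none.

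In control cells Pol II peaks were found at 1 of the 10 genes, CXCL1, and there only past the end of the gene. In knockdown cells 5 of the 10 carried peaks, namely NFKBIA, NFKB1, CXCL1, CXCL8 and IL6, and each of the 5 had a peak within 1 kb of its start. With 500 bp to each side of the start 4 of them did, without NFKBIA. NFKB2, RELB, TNFAIP3, BIRC3 and CXCL2 lacked a peak in both lists, up to 5 kb from the gene. The 10 genes carried 2 shLacZ peaks covering 404 bp and 11 shRRN3 peaks covering 5094 bp. The peaks were 197 and 207 bp wide in shLacZ and 241 to 751 bp wide in shRRN3, against list medians of 306 and 432 bp.

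**Figure D1:**
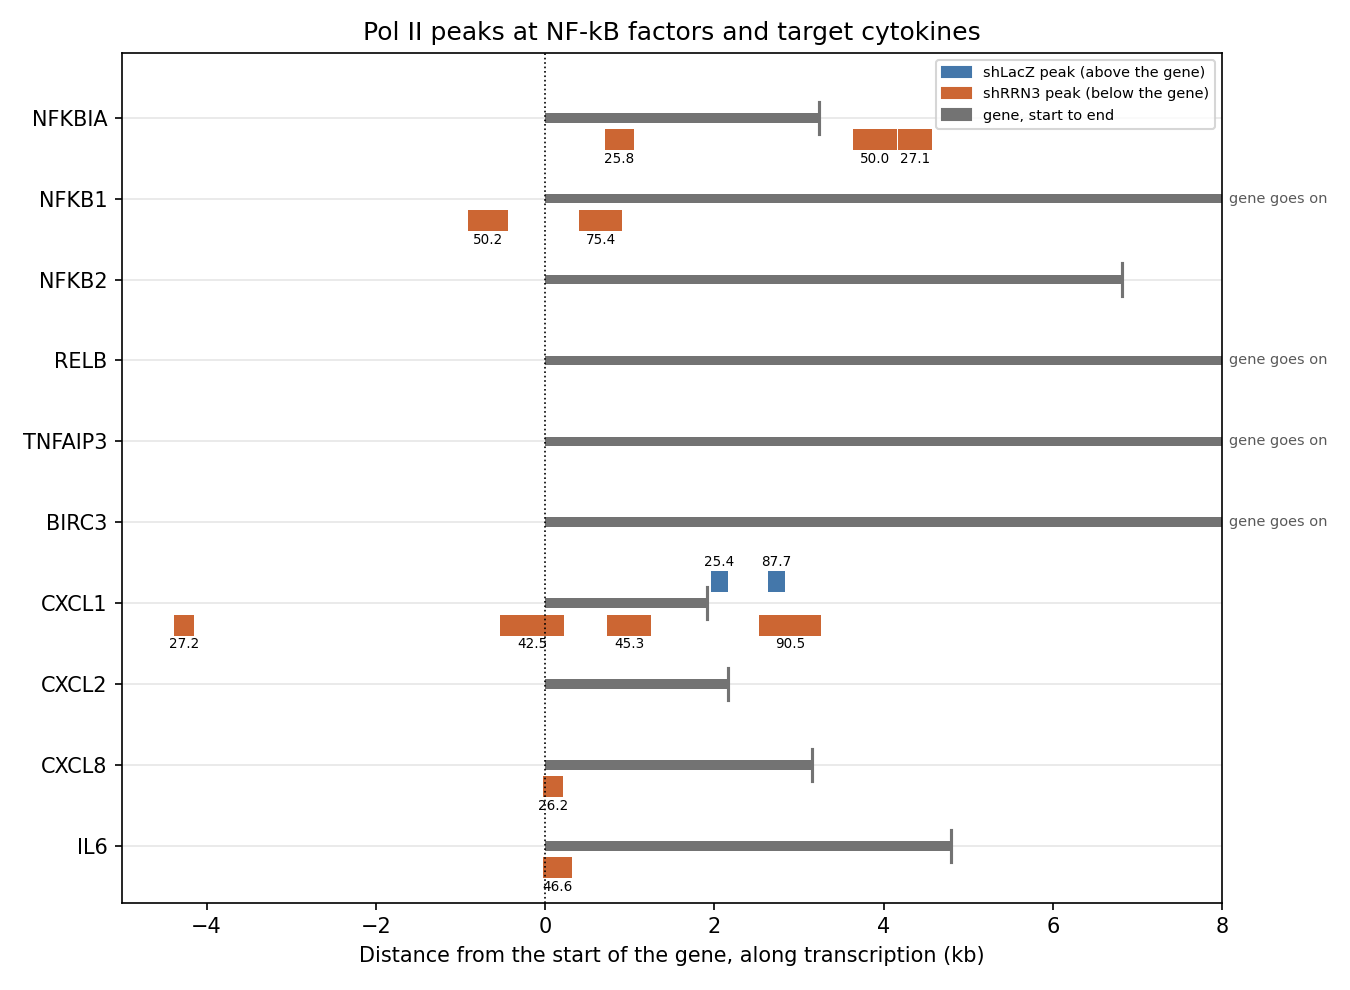
Pol II peaks at the 10 genes, drawn by distance from the start of the canonical transcript along the direction of transcription (kb), with shLacZ peaks above and shRRN3 peaks below each gene and the score percentile of each peak printed beside it. CXCL1 alone carries shLacZ peaks, both past its end, while shRRN3 peaks lie within 1 kb of the starts of 5 genes.

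These counts were read against all protein-coding genes. A peak in the gene or 5 kb around it was present at 14.5% of all genes in shLacZ and at 39% in shRRN3, beside 1 and 5 of the 10. A start peak, defined as a peak sharing at least 1 bp with the 2 kb centred on the start, was present at 8.3% of all genes in shLacZ and at 26% in shRRN3, beside 0 and 5 of the 10. Body peaks share at least 1 bp with the stretch between that window and the end of the gene. They were present at 4.19% and 15.1% of all genes, beside 0 and 2 of the 10. The 2, at NFKBIA and CXCL1, were peaks also counted at the start, and reached 52 and 254 bp into the body. Past-the-end peaks were present at 2.9% and 9.67% of all genes, beside 1 and 2 of the 10. With 10 genes chosen by name these counts are descriptions, and nothing is read from them as particular to the pathway.

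A start peak in shRRN3 without one in shLacZ was found at 5 of the 10 genes and at 18.8% of all genes. None of the 10 had a start peak in both lists, a pattern of 7.15% of all genes, or in shLacZ alone, a pattern of 1.15%. Over the 10 genes the start window had a median coverage of 121.5 bp in shRRN3 against 0 bp in shLacZ. The median over all genes was 0 bp in both lists. With 5 of the 10 genes covered, the 121.5 bp lies midway between 0 bp and the 243 bp of CXCL8 and restates that count. Mean coverage per gene in shRRN3 was 288 bp for the 10 genes and 195 bp over all genes. In shLacZ it was 0 and 45.1 bp.

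**Figure D2:**
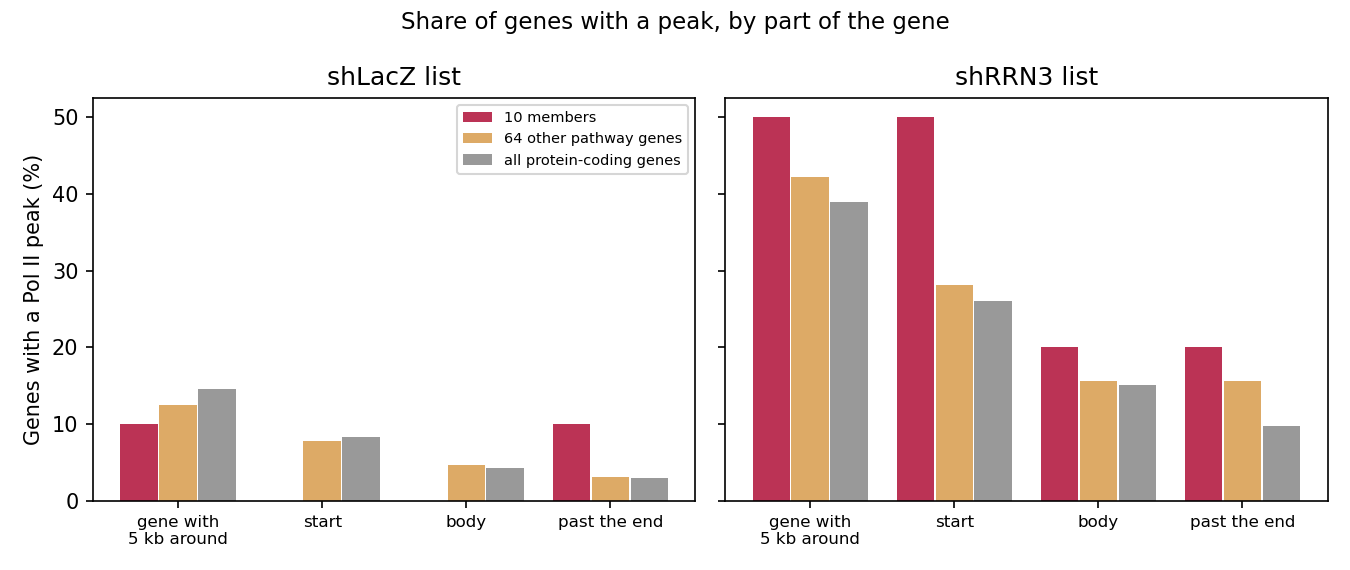
Share of genes (%) with a Pol II peak in the gene with 5 kb around it, at the start, in the body and past the end, in the shLacZ list (left) and the shRRN3 list (right), for the 10 genes, 64 other genes of the pathway and all 20033 protein-coding genes. In shRRN3, 5 of the 10 genes had a start peak against 26% of all genes, and in shLacZ none had one against 8.3%.

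The inhibitor and the factors were examined first. NFKBIA, which encodes the IkB protein that NF-kB itself induces, lies on the minus strand of chromosome 14 (35401079 to 35404749, GRCh38) with no other annotated gene within 5 kb. It had no peak in shLacZ, where the nearest one lay 354704 bp away at the start of FAM177A1. In shRRN3 it had 3 peaks that together covered 1286 bp. The peak counted at its start lay 701 to 1052 bp inside the gene, had a score of 58.7 (percentile 25.8), and had 29.0% of its bases in exons and 1 match to the kappaB consensus, the DNA site of NF-kB factors. The other 2 lay past the end of the canonical transcript (35401513), at 399 to 922 bp (score 74.6) and 928 to 1337 bp (score 59.3) beyond it, and were separated by 5 bp. The first of them reached into the outermost annotated bounds of the gene. Thus 934 bp were covered past the end of NFKBIA and 300 bp at its start, both in shRRN3 alone.

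NFKB1 encodes the precursor of a DNA-binding NF-kB subunit and spans 115973 bp on the plus strand of chromosome 4 (102501330 to 102617302). It had no shLacZ peak, and the nearest lay 581007 bp away. In shRRN3 a peak lay on each side of the start, with positions counted from the start along transcription, from -908 to -439 bp (score 74.9, percentile 50.2) and from 400 to 910 bp (score 109, percentile 75.4). The peak after the start was the highest-ranked start peak among the 10 genes. The peak before it overlapped an unnamed lncRNA gene transcribed the opposite way, so its position alone does not assign it to NFKB1. No peak was found in the remaining body or past the end of NFKB1 in either list.

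The 100 bases before the starts of these genes are shown because they hold the sites through which NF-kB factors are known to act on their own genes, and because neither stretch was covered by a peak. They are chr14:35404750-35404849 on the minus strand and chr4:102501259-102501358 on the plus strand, from RefSeq (GRCh38.p14), written 5′ to 3′, with matches to the kappaB consensus and to TATAAA on either strand in capitals.
NFKBIA: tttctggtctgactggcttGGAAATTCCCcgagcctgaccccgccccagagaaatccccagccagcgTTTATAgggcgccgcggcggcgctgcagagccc
NFKB1: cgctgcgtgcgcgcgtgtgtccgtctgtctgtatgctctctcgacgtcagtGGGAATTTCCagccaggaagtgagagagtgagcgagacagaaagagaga
The match to the kappaB consensus lay 81 to 72 bp before the start of NFKBIA and 49 to 40 bp before that of NFKB1. The NFKBIA sequence also holds a match to TATAAA on the opposite strand, 33 to 28 bp before the start, and NFKB1 has none in 250 bp. The shRRN3 peaks of NFKB1 left a gap of 838 bp that contains this promoter, whose 250 bases had a GC share of 72.0%. The peaks before and after the gap had GC shares of 44.5% and 64.2%, and the part of base composition in the gap was not tested.

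NFKB2 and RELB, the factors of the noncanonical branch of the pathway, had no peak. NFKB2 (chromosome 10, 102394110 to 102402524) lay 337812 bp from the nearest shLacZ peak and 29878 bp from the nearest shRRN3 peak, which was at the start of CUEDC2. RELB (chromosome 19, 45001461 to 45038192) lay 332101 bp and 45871 bp from them, the latter at the start of CLPTM1. TNFAIP3, a ubiquitin-editing enzyme that shuts the pathway down, had its nearest peaks 1189088 bp away in shLacZ and 34780 bp upstream in shRRN3 (chromosome 6, gene at 137867214 to 137883314). That shRRN3 peak lay within the lncRNA gene WAKMAR2 and had a percentile of 39.6. BIRC3, a ubiquitin ligase of the inhibitor of apoptosis family on chromosome 11 (102317484 to 102339403), came closest to having a peak. Its nearest shRRN3 peak lay 6433 bp past its end, at percentile 1.89, and 1130 bp from the start of the related gene BIRC2. A lack of a listed peak does not show a lack of Pol II, since the depth behind the lists is unknown.

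The cytokine genes were examined next. CXCL1, a chemokine that attracts neutrophils, is the shortest of the 10 genes at 1916 bp and lies on the plus strand of chromosome 4 (73869393 to 73871308) with no other annotated gene within 5 kb. In shLacZ its peaks lay at 39 to 245 bp past the end (score 55.7, percentile 25.4) and at 720 to 916 bp past the end (score 128, percentile 87.7). In shRRN3 a wider peak lay at 609 to 1342 bp past the end (score 168, percentile 90.5) and contained the second shLacZ peak. This was the only site among the 10 genes that both lists shared, and it held the highest-ranked peak of the 10 genes in each list.

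The remaining shRRN3 peaks of CXCL1 spread over the gene. A peak of 751 bp spanned the start, from -528 to 222 bp (score 68.6, percentile 42.5). Another of 527 bp lay 728 to 1254 bp inside the gene (score 70.3, percentile 45.3). A narrow one of 241 bp lay upstream, from -4390 to -4150 bp (percentile 27.2). CXCL1 thus had 1024 bp covered at the start, 254 bp in the body and 734 bp past the end in shRRN3, against 0, 0 and 404 bp in shLacZ.

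The past-the-end peak at CXCL1 was set against other genes, a comparison chosen after its values were seen. A past-the-end peak with no start or body peak in shLacZ was found at 1.8% of all genes, and at 1.48% when a past-the-end peak in shRRN3 was also required. Because such peaks can belong to a neighbour, 8148 genes with no other annotated gene in the 5 kb past the end were taken alone. Of these, 93 (1.14%) had a past-the-end peak in shLacZ, 40 of them without a start or body peak, and 352 (4.32%) had one in shRRN3. Among those with such a peak, the covered length at CXCL1 was at percentile 54.8 in shLacZ and 66.5 in shRRN3.

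The sequence of the second shLacZ peak past CXCL1 is shown because it is the stretch that both lists marked. It is chr4:73872028-73872224 on the plus strand of GRCh38, 197 bases with a GC share of 46.2%, with a match to TGANTCA, the core of the AP-1 site, in capitals.
CXCL1 past the end: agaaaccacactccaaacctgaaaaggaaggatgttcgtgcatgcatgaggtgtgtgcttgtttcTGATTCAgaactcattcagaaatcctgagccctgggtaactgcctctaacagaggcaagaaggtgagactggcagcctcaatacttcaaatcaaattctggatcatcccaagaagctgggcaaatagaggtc
It held no match to the kappaB consensus and no AATAAA, the main polyadenylation signal, on the plus strand, while the wider shRRN3 peak around it held 2 copies of AATAAA. These matches are descriptions of the sequence.

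CXCL8, the chemokine known for recruiting neutrophils, and IL6, a cytokine of the acute-phase response, each had a narrow peak directly at the start in shRRN3 and none in shLacZ. At CXCL8 (chromosome 4, 73740519 to 73743716, plus strand) the peak ran from -27 to 215 bp, with a score of 59.0 (percentile 26.2). At IL6 (chromosome 7, 22725884 to 22732002, plus strand) it ran from -20 to 310 bp, with a score of 71.4 (percentile 46.6). The IL6 peak also overlapped STEAP1B and the antisense gene IL6-AS1, both transcribed the opposite way, so it cannot be assigned to IL6 by position alone. Neither gene had a peak in its body or past its end. The nearest shLacZ peaks were 127631 bp from CXCL8, which was the peak past CXCL1, and 799805 bp from IL6.

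The 100 bases before the starts of the cytokine genes are shown because the CXCL1 stretch was covered in full, those of CXCL8 and IL6 over 27 and 20 bp, and that of CXCL2 not at all, in shRRN3. They are chr4:73869293-73869392, chr4:73740469-73740568 and chr7:22727100-22727199 on the plus strand and chr4:74099196-74099295 on the minus strand, from the same source, with the same matches in capitals.
CXCL1: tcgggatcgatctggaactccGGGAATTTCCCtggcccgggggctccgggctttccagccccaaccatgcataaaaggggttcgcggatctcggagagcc
CXCL2: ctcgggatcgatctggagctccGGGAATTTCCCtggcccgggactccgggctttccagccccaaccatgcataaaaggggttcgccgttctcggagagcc
CXCL8: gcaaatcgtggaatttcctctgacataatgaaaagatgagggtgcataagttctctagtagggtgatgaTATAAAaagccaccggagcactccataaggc
IL6: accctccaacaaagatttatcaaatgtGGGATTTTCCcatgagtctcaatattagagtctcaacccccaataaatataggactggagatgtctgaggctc
CXCL1 and CXCL2 were identical at 95 of 101 aligned positions (94.1%), and at 70.4% over the 250 bases before the start. Both carried overlapping kappaB matches on either strand about the same distance from the start, at 79 to 69 bp in CXCL1 and 78 to 68 bp in CXCL2. Whether reads shared by such near-identical sequences were kept is not stated, so the presence of a peak at CXCL1 and its absence at CXCL2 are uncertain to that extent. IL6 had a kappaB match 73 to 64 bp before the start. CXCL8 had no match to the consensus as searched, which begins with GGG. Its stretch does hold tggaatttcc, which departs from that consensus only at the first base. CXCL8 had a TATAAA match 31 to 26 bp before the start and a TGANTCA match 137 to 131 bp before it.

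A kappaB match within 250 bases before the start was present at 7 of the 9 genes with a RefSeq promoter here, all but NFKB2 and CXCL8, and RELB had no entry. It was present at 5.69% of 15344 promoters of protein-coding genes, TATAAA at 9.23% and TGANTCA at 5.02%. The genes were named as factors and targets of NF-kB, so nothing is read from the difference in kappaB share. Of the 7 genes with a kappaB match, 4 had a shRRN3 start peak (NFKBIA, NFKB1, CXCL1 and IL6) and 3 had none (TNFAIP3, BIRC3 and CXCL2). Of the genes without a match, CXCL8 had a shRRN3 start peak and NFKB2 had none. Over all genes the share with a shRRN3 start peak was 26%, and a link between match and peak was not tested. The RefSeq and GENCODE starts were the same base at 8 of the 9 genes, and at NFKB2 the RefSeq start lay at -1595 bp from the GENCODE start.

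CXCL8, CXCL1 and CXCL2 belong to a chemokine cluster that was followed over 398.7 kb, from 20 kb before CXCL8 to 20 kb past CXCL2 (chromosome 4, 73720519 to 74119196). The stretch holds 11 annotated protein-coding genes, and 2 shLacZ and 10 shRRN3 peaks. Both shLacZ peaks were those past CXCL1. Besides the peaks already described, shRRN3 had 2 between CXCL1 and PF4, at 14460 bp (percentile 53.1) and 45891 bp (percentile 69.3) past the CXCL1 end. The last 3 lay near the outermost annotated bound of MTHFD2L, a gene of mitochondrial folate metabolism whose canonical start is beyond the stretch, and the nearest of them was 10351 bp from CXCL2. CXCL6, CXCL5 and CXCL3, further chemokines of the cluster, had no peak within 5 kb in either list, and lay 15939, 78122 and 70740 bp from the nearest shRRN3 peak.

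**Figure D3:**
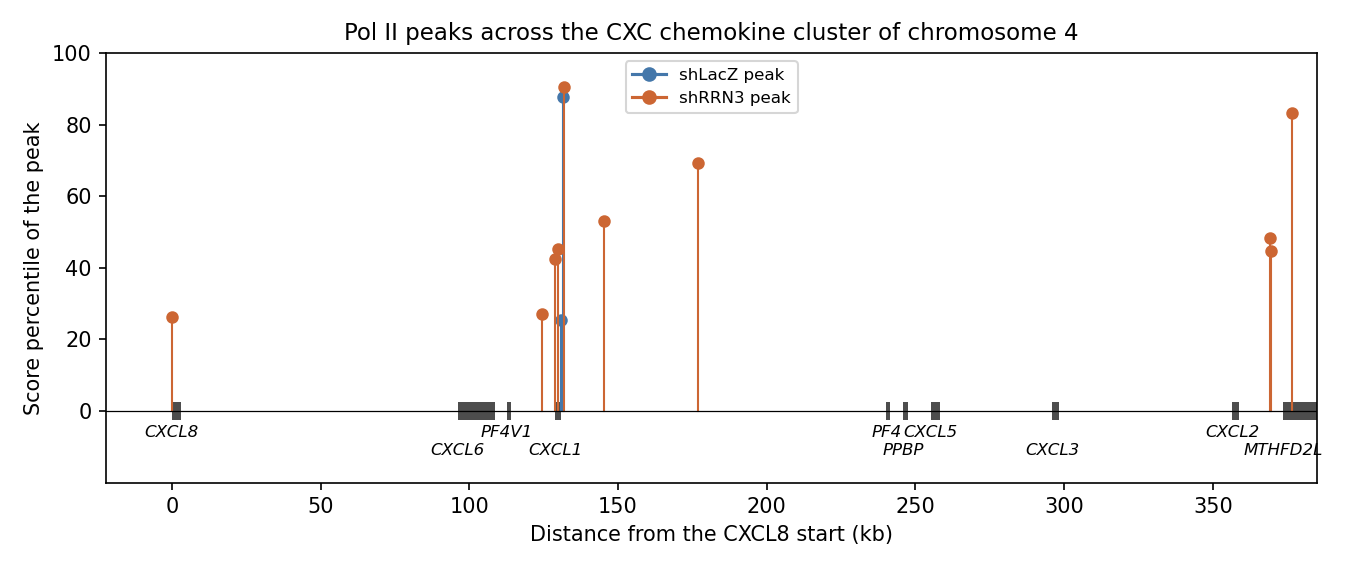
Pol II peaks across the CXC chemokine cluster, by distance from the CXCL8 start (kb), with the score percentile of each peak within its own list as the height and genes as bars on the zero line. The shLacZ peaks, at percentiles 25.4 and 87.7, lie past CXCL1, and the shRRN3 peaks lie mostly around CXCL1 and near the outermost annotated bound of MTHFD2L.

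The rank of the start peaks bore on how they compare between the lists. The best start peaks of the 5 genes in shRRN3 ranged from percentile 25.8 (NFKBIA) to 75.4 (NFKB1), with a median of 45.3. Over all 5202 genes with a shRRN3 start peak the median was 66.0. It was 58.2 for the 3770 genes with a start peak in shRRN3 alone and 84.6 for the 1432 genes with one in both lists.

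Genes with higher-ranked shRRN3 start peaks more often had a shLacZ start peak. Of 778 genes whose best shRRN3 start peak was between percentiles 20 and 40, the range of CXCL8 and NFKBIA, 11.8% also had one in shLacZ. Of 974 genes between 40 and 60, the range of CXCL1 and IL6, 16.7% had one. Of 1261 genes between 60 and 80, the range of NFKB1, 22.7% had one, and above 80 the share was 50.7%. In each of the 3 ranges most genes with a shRRN3 start peak lacked one in shLacZ, as the 5 genes did. With 1 library per hairpin and no depth, the hairpin and the length of its list cannot be told apart. When the shRRN3 list was shortened to the length of the shLacZ list by keeping the 3920 best-scoring peaks, 1 of the 10 genes (NFKB1) kept a start peak and CXCL1 kept its peak past the end.

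**Figure D4:**
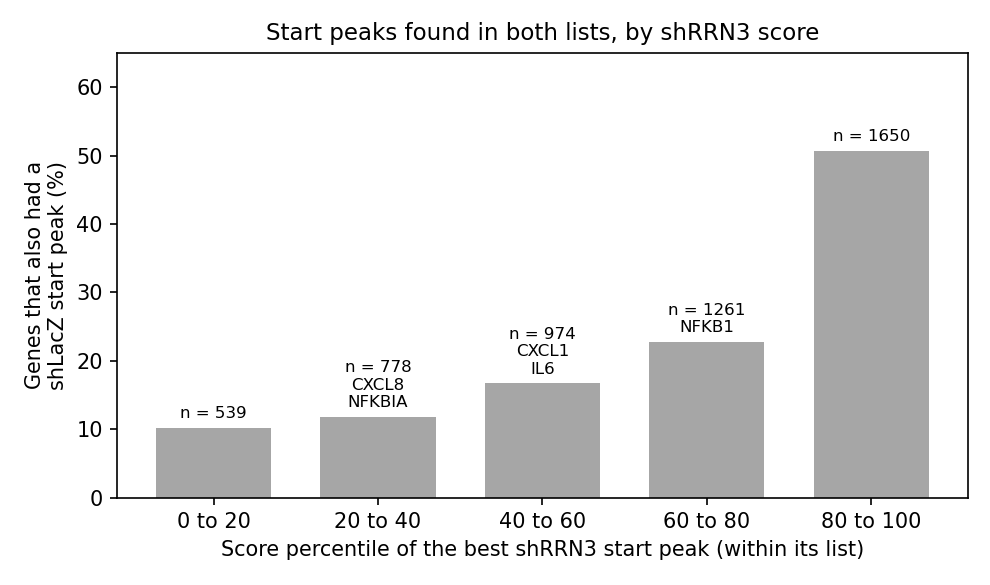
Share of genes (%) with a shRRN3 start peak that also had a shLacZ start peak, by the score percentile of their best shRRN3 start peak, with the number of genes above each bar and the 5 NF-kB genes named in their range. The share rises from 10.2% in the lowest range to 50.7% in the highest, and the 5 genes lie in the 3 middle ranges.

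The rest of the pathway was read from a list of 64 other genes grouped by role. A start peak was present at 5 of the 64 in shLacZ and at 18 in shRRN3, and all 5 were among the 18. These counts were close to the shares over all genes, 8.3% and 26%, and nothing is read from them or from their split by role. Receptors and adaptors had a start peak at 0 and 3 of 15 genes in shLacZ and shRRN3, kinases and ubiquitin enzymes at 1 and 7 of 14, factors and inhibitors at 1 and 3 of 9, and targets at 3 and 5 of 26. The 5 genes with a start peak in both lists were NFKBIZ, SOD2, BCL2L1, ZC3H12A and RBCK1.

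NFKBIZ, a nuclear IkB protein that assists NF-kB at IL6 and other secondary targets, had start peaks at percentile 72.6 in shLacZ and 77.1 in shRRN3. SOD2, the mitochondrial superoxide dismutase, had them at 75.6 and 93.7. ZC3H12A, an RNase that degrades IL6 mRNA, had them at 81.6 and 76.1. The survival gene BCL2L1 followed with 74.4 and 73.0, and RBCK1, a part of the linear ubiquitin ligase, with 14.8 and 47.0. These 5 genes were named because they had a start peak in both lists. Another 13 of the 64 had one in shRRN3 alone, as CXCL1, CXCL8 and IL6 did. At RBCK1 the peaks did not overlap, lying from -180 to 174 bp in shLacZ and from -795 to -335 bp in shRRN3.

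In shRRN3 alone, the highest-ranked start peaks of the other pathway genes were at CFLAR, an inhibitor of death receptor signalling (percentile 93.6), and at BIRC2, the neighbour and relative of BIRC3 (91.3). They were followed by the deubiquitinase gene OTULIN (80.6), the IkB kinase gene CHUK (79.6), the receptor-interacting kinase gene RIPK1 (78.9), the factor gene REL (78.1), the kinase adaptor gene TAB2 (75.0) and the factor gene RELA, the last of the 8. Among the genes of DNA-binding NF-kB subunits, RELA, REL and NFKB1 had peaks in the start window in shRRN3, and NFKB2 and RELB did not. Other annotated genes start in the windows of RELA (RELA-DT), REL (REL-DT), CHUK (CHUK-DT), OTULIN (OTULIN-DT), RIPK1 and BIRC2 (an unnamed gene each), and at ZC3H12A (ZC3H12A-DT) among the genes marked in both lists, so position alone does not assign those peaks. Outside the start window, shLacZ peaks covered 197 bp at CFLAR and 561 bp at RIPK1, in the gene or 5 kb around it. The others of the 8 had no shLacZ peak there.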

How the data were processed

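Pol II ChIP-seq of SK-OV-3 cells gave 1 deposited peak list per hairpin, and the 2 input libraries were not used here. Peak names in both lists are those MACS gives, and the submitters' processing notes name hg38. The version, aligner, treatment of duplicate and multiply mapped reads, threshold and use of the input are not given in the sources used here. The score that the authors deposited with each peak ranges from 50.03 (shLacZ) or 50 (shRRN3) to 3100, and depth is unknown. The other deposited columns are coordinates.

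Genes came from GENCODE 44 (20033 protein-coding of 62663). Start and end were those of the canonical transcript, since the outermost bounds of genes such as IL6 come from longer transcripts, and 5 kb were added to the gene's bounds. Start windows reached 1 kb to each side, and peaks were placed by at least 1 shared bp. Motifs were searched on both strands in the 250 bases before each RefSeq start. Named pathway genes were those with a start peak in both lists and the 8 highest-ranked in shRRN3 alone. The genes and lists were chosen with earlier results of these data known. No test between hairpins was possible with 1 library each. Overlaps were checked with bedtools 2.31.1, and the placement of peaks was tested on simulated data. The 400 simulated peaks were planted and checked with the same definitions of the parts of a gene. They test the overlap code and cannot reveal a wrong definition. Only longer genes were used, which left out CXCL1, CXCL2, CXCL8 and NFKBIA. The work used Python 3.11.15 and matplotlib 3.10.9.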

Additional observations from a re-analysis of the deposited data

How the results depend on the processing

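For 12 results, 8 alternative settings gave 70 values, of which 59 stayed within 1.5 times of the reported value and 11 moved. Part of the 59 could not move, so that count is no measure of stability. The flank does not enter the start window or the body. Outermost bounds do not change the gene with its flanks, and shortening the shRRN3 list leaves the shLacZ list as it was. The flanks of 2 and 10 kb for the ranks of the peaks were chosen after seeing the data. Reducing the shRRN3 list to 3920 peaks left 2 of the 10 genes with a shRRN3 peak, 1 with a start peak, 0 with a body peak, 1 with a past-the-end peak and 1245 bp covered. By construction this drops lower-scoring peaks of one list. A score of at least 65.58, the shLacZ median, left 3 genes with a start peak and 1 with a body peak in shRRN3, and 197 bp covered in shLacZ. This cut was applied to the scores of both lists, which may not be comparable. A start window of 2 kb to each side gave 1 gene (CXCL1) with a shLacZ start peak, because the gene is so short that its past-the-end peak fell in that window, and 0 with a body peak in shRRN3. Placing peaks by midpoint also gave 0 with a body peak in shRRN3. A start window of 500 bp to each side left 4 genes with a shRRN3 start peak, without NFKBIA. With outermost gene bounds IL6 lost its start peak, leaving 4 genes. With 10 kb around each gene BIRC3 counted as having a peak. That flank also takes in the start peak of BIRC2 (percentile 91.3), so position does not assign the gained coverage to BIRC3. No paired analysis was possible because each hairpin had 1 library. The depth behind the lists limits what the lack of a peak can show.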

Other observations

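CCL20, a chemokine gene of the pathway list on the plus strand of chromosome 2 (227805739 to 227817564), was singled out after its values were seen. The reason was that it alone of the 64 other pathway genes had a past-the-end peak and no start or body peak in shLacZ. This pattern was found at 1.8% of all genes, so nothing is read from it as particular to the pathway or to chemokines. The shLacZ peaks of CCL20 lay 756 to 934 bp past the end (score 72.9, percentile 60.4) and 4103 to 4284 bp past the end (percentile 38.6). In shRRN3 a peak of 504 bp lay 560 to 1063 bp past the end (score 144, percentile 86.5) and contained the first of them, and CCL20 had no other shRRN3 peak within 5 kb. CXCL1 had its shared peak at 720 to 916 bp past the end in shLacZ. An unnamed gene lies within 5 kb of CCL20, and its part in these peaks was not tested.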
